A study of Homo sapiens with 8 samples.

Results

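The 39 genes described here make up the NRF2, glutathione and antioxidant system: the transcription factor NRF2 and its partners, the enzymes that make and recycle glutathione, and the enzymes that remove peroxides, superoxide, quinones and electrophiles. They were given as a list of gene symbols. Every probe set (a group of probes that reads 1 transcript on the array) whose annotation names 1 of these genes and no other was taken as a member. On the Affymetrix HG-U133A array this gave 36 of the 39 genes, of 11963 genes in the annotation, with 53 of the 22283 probe sets, and 47 of them, for 35 genes, were bright enough to be tested. Those not tested were 3 of the 4 probe sets of PRDX2, 1 of 2 of GSTM4, 1 of 3 of ME1 and the only probe set of GSTT1. SOD2 is read only by 4 probe sets annotated jointly to SOD2 and SOD2-OT1, which were assigned to neither, and no probe set was annotated to PRDX5 or MGST1.

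The cells were a human line of lung adenocarcinoma, a non-small cell cancer; the line is not named in the labels. The study asked how PPARγ ligands act together with platinum drugs. Cells were grown in DMEM with serum and kept for 24 h in control medium (the design text names the control as DMSO), rosiglitazone at 1 µM, carboplatin at 10 µM, or the 2 drugs combined, whose doses are not restated for the combination. Rosiglitazone is a ligand of the PPARγ protein, a nuclear receptor that controls lipid metabolism genes, and carboplatin is a platinum drug that crosslinks DNA. Each of the 4 groups had 2 arrays, and the labels do not say whether these came from separate cultures, so every p-value measures only the spread between arrays, which may be technical.

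The deposited signals had array medians of 36.2 to 54.3. Arrays of a group correlated at 0.974 to 0.976 over the 13338 probe sets tested and arrays of different groups at 0.964 to 0.984. Control 1, rosiglitazone 2, carboplatin 2 and combination 2 are the brighter arrays of their groups, at medians of 45.8, 54.3, 44.6 and 52.2. Epithelial markers were above the brightness filter for 5 of 6 genes (KRT7, KRT8, KRT18, KRT19 and CDH1), while EPCAM was not. Of the lung lineage markers FOXA2 and SFTPB were above it, NKX2-1 was not, and NAPSA has no probe set of its own. The summed level of these lineage markers, in log2 units, was 7.92 to 8.17 on the control arrays, 7.37 on both rosiglitazone arrays, 7.73 to 7.77 on the carboplatin arrays and 7.63 to 7.86 on the combination arrays. Every drug group thus lay below control. Within the list, the brightest FOXA2 probe set read 7.62 and 7.29 on the control arrays and 6.15 and 6.52 on the rosiglitazone arrays. The brightest SFTPB probe set lay between 5.71 and 6.33 on all 8 arrays, and the other tested one read 4.43 and 4.49 on the control arrays and 5.52 and 5.97 on the rosiglitazone arrays. No leukocyte marker (0 of 4) and no endothelial marker (0 of 3) passed the filter, and 2 of 5 fibroblast markers did (COL1A1 and DCN). The 8 arrays are few, which limits the precision throughout, and fewer cells cannot be told apart from less RNA per cell.

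NRF2, the product of NFE2L2, is held in the cytoplasm and marked for destruction by KEAP1. When oxidants or electrophiles modify KEAP1, NRF2 accumulates, pairs with a small MAF protein such as MAFG or MAFF, and binds antioxidant response elements near genes such as NQO1, GCLC, GCLM and SLC7A11. The system matters in lung adenocarcinoma, where NRF2 is often active because of changes in KEAP1, and glutathione also binds platinum drugs, which the transferases can promote.

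Promoter sequence was examined because NRF2 acts through antioxidant response elements. RefSeq windows on GRCh38.p14, from 250 bases before to 50 bases after a transcription start, were found for 31 of the 39 genes. GSS, GSR, SLC7A11, PRDX1, PRDX6, SOD1, GSTT1 and MGST2 had no entry. The core TGACNNNGC, searched on both strands, was present in 12 of these 31 genes (38.7%), where 16.1% of all 27305 genes held it in at least 1 window. Counted by window it was in 12 of 44 member windows (27.3%) and in 13.3% of all windows. No enrichment was tested, and the 9-letter core overlaps binding motifs of AP-1 and other factors. These sequences show the core in 6 members of different roles, in capitals and read 5′ to 3′ on the strand of the gene, as TGACNNNGC or as its reverse complement GCNNNGTCA.
EPHX1, chr1:225825266-225825294, plus strand: tgagattggcTGACTTGGCaggactgtgc
GCLM, chr1:93909446-93909474, minus strand: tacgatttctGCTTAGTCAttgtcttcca
GSTP1, chr11:67583736-67583764, plus strand: gccggcgccgTGACTCAGCactggggcgg
GPX2, chr14:64942849-64942877, minus strand: acctgtttttGCTAAGTCAtcctggggat
KEAP1, chr19:10502784-10502812, minus strand: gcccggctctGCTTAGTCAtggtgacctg
ME1, chr6:83431170-83431198, minus strand: tctcctgccaTGACTCAGCgcttctcgca

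The match of EPHX1, found in 1 of its 3 windows, begins at position -78 from that start. Those of the others begin at -34 for GCLM, -66 for GSTP1, -122 for GPX2, -31 for KEAP1 and -137 for ME1. KEAP1 held a second match at -54 in the same window, which is 1 of its 2, and ME1 a second match at 12, past the start. GCLM, GSTP1, GPX2 and ME1 have 1 window each.

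Values are log2(signal + 16) after quantile normalization, so differences of dim probe sets are understated. Differences are given in log2 units ± the standard error from limma, with n = 2 arrays in a group. A drug's effect over both backgrounds is the mean of its difference without and with the other drug, which sets its 4 arrays against the other 4. The limma p-values were adjusted by the Benjamini-Hochberg method across the 13338 tested probe sets, and a probe set is called where the adjusted p is under 0.05.

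None of the 47 member probe sets was called in any of the 8 contrasts. The members nearest to a call concerned rosiglitazone: 1 of 3 probe sets of the quinone reductase gene NQO1 was lower, and MGST3, EPHX1 and GPX4 were higher, by 0.34 to 0.47 over both backgrounds. With carboplatin the nearest was 1 of 2 probe sets of the transketolase gene TKT, which was lower. The regulators NFE2L2 and KEAP1 and the NRF2 targets GCLC and GCLM lay within 0.17 of 0 for either drug over both backgrounds. For rosiglitazone alone against control NFE2L2 was at 0.30, GCLC at 0.30 and 0.18, KEAP1 at 0.03, GCLM at -0.11 and MAFG at -0.33. On top of carboplatin they were at -0.03, 0.04 and -0.10, 0.02, -0.14 and 0.15. The NRF2 target SLC7A11 was at -0.16, -0.19 and -0.24 for rosiglitazone over both backgrounds and at -0.12, -0.24 and -0.09 for carboplatin. MAFF was at -0.20 and 0.03 for carboplatin. The summed level of the lineage markers was also lower with rosiglitazone alone, at 7.37 on both arrays against 7.92 to 8.17 on control. Within that list the brightest FOXA2 probe set was lower, while a dimmer SFTPB probe set was higher. On top of carboplatin the sums overlapped, at 7.63 to 7.86 for the combination against 7.73 to 7.77 for carboplatin. The part of these markers in the rosiglitazone differences of the members and of the neighbouring genes given below was not tested.

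For rosiglitazone over both backgrounds limma called 0 of 47 members, where 0.885% of all probe sets were called. At an unadjusted p under 0.05 there were 4 of 47 members, where 9.96% of all probe sets passed. For carboplatin over both backgrounds it called 0 members (0.0300% of all probe sets), with 1 at an unadjusted p under 0.05 where 4.02% of all probe sets passed. Rosiglitazone against control called 0 members (0.360% of all probe sets), with 3 at an unadjusted p under 0.05 where 10.4% of all passed. Carboplatin against control called 0 members (0.0150% of all), with 0 at an unadjusted p under 0.05 where 5.17% of all passed. The combination against control called 0 members (0.225% of all), with 5 at an unadjusted p under 0.05 where 8.42% of all passed. Shares near those of all probe sets are not a result about the members.

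For the combination against carboplatin 0 members were called by limma (0.157% of all), with 3 at an unadjusted p under 0.05 where 6.43% of all passed. For the combination against rosiglitazone it was 0 members (0.0225% of all), with 2 at an unadjusted p under 0.05 where 4.54% of all passed. The interaction, which asks whether the combination departed from the sum of the single drugs, called 0 members and 0 of all probe sets, with 1 member at an unadjusted p under 0.05 where 5.97% of all passed.

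The members' differences were small in size. For rosiglitazone over both backgrounds they ran from -0.42 to 0.47 with a median of -0.02, 22 higher and 25 lower, and the median over all probe sets was -0.01. Their median absolute difference was 0.0931, against 0.115 over all probe sets, and their median standard error was 0.113, against 0.143. For carboplatin they ran from -0.31 to 0.57 with a median of 0, against 0 over all probe sets. The smallest absolute difference called over all probe sets was 0.30 for rosiglitazone and 0.91 for carboplatin, so smaller changes of a member could be missed. Larger ones could be missed as well, since members at up to 0.47 for rosiglitazone were not called. The values 0.30 and 0.91 are thus not limits above which a member's change would be seen. With the deposited scaling, where all probe sets together shifted in median by 0.17 for rosiglitazone and by -0.10 for carboplatin, 45 of 47 members were higher with rosiglitazone and 40 of 47 lower with carboplatin. Against that shifted median 22 members lay above and 25 below for rosiglitazone, and 21 above and 26 below for carboplatin.

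Set against the promoter sequences above, the 13 tested probe sets of the 11 tested genes with a match to the core ran from -0.17 to 0.40 for rosiglitazone over both backgrounds, with a median of 0.02. The 23 probe sets of the 17 tested genes whose windows lack it ran from -0.42 to 0.47 with a median of -0.02. Of the 4 members nearest to a call, EPHX1 held a match while NQO1, MGST3 and GPX4 did not, which says only that these letters are not in those windows.

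**Figure D1:**
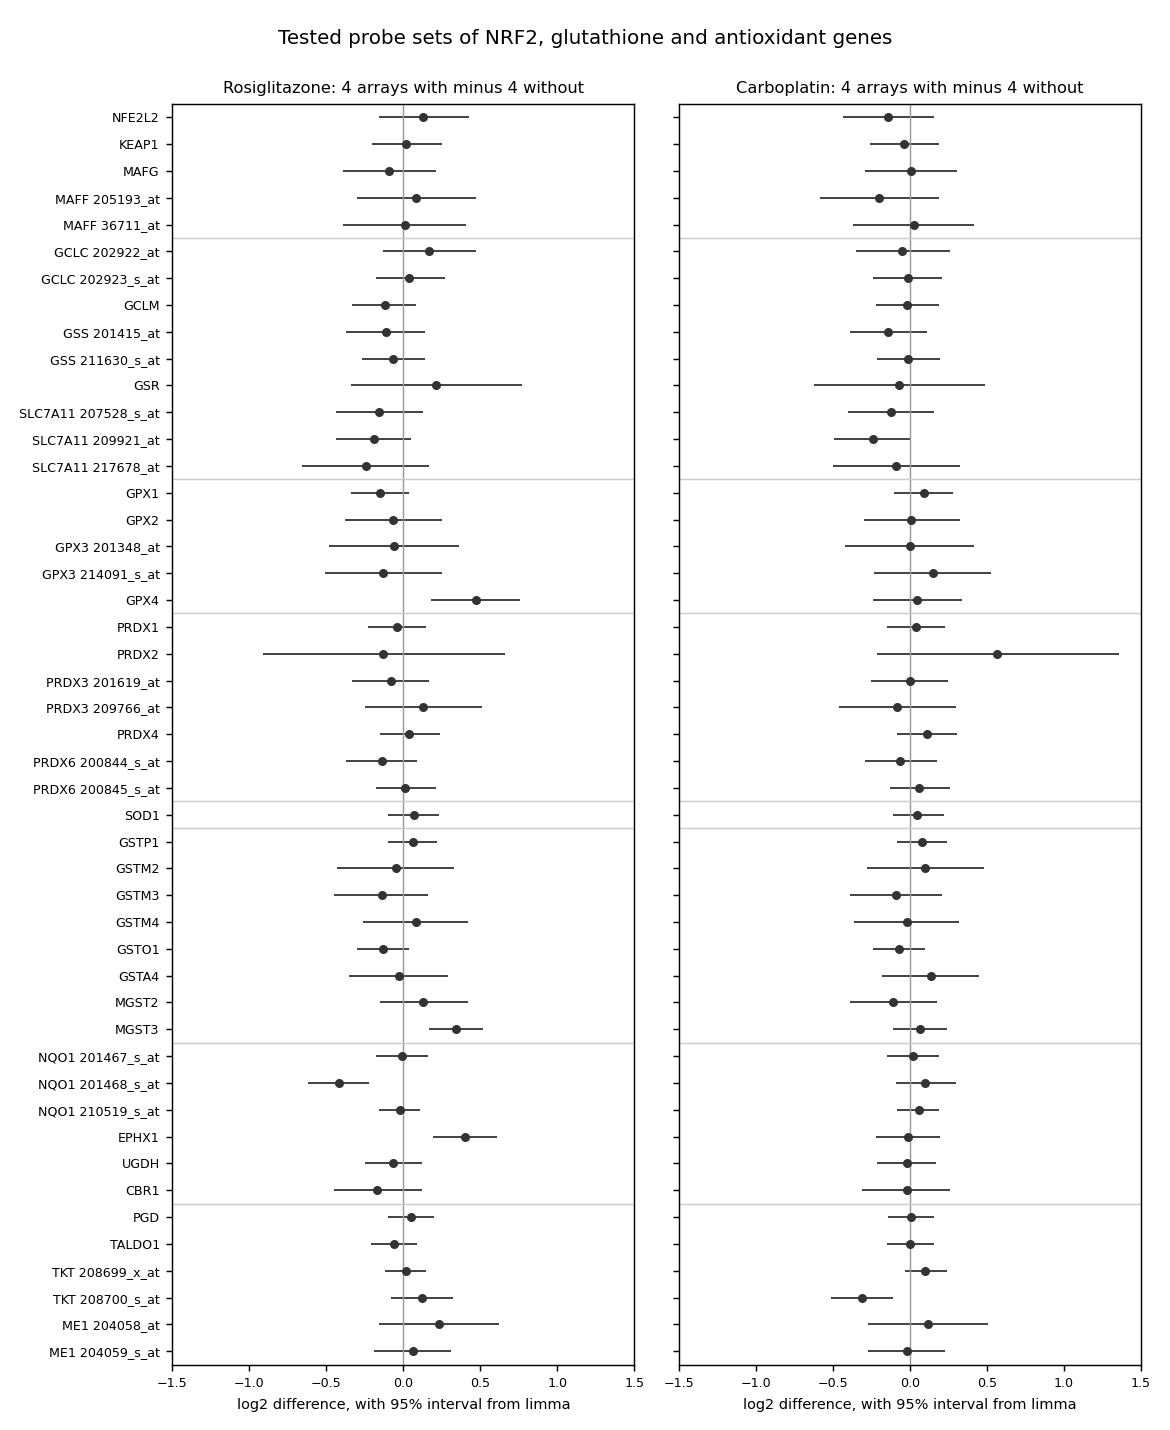
Log2 difference (x axis) of each of the 47 tested member probe sets (y axis, grouped by role and separated by grey lines), for the 4 arrays with rosiglitazone minus the 4 without (left) and the 4 with carboplatin minus the 4 without (right). Points are limma estimates and bars their 95% intervals, unadjusted: the intervals of GPX4, MGST3, EPHX1 and NQO1 201468_s_at lie off 0 for rosiglitazone and that of TKT 208700_s_at for carboplatin, and none of the 47 was called after adjustment.

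The regulators showed no called difference. NFE2L2, which encodes NRF2 itself, was at log2 values of 8.19 and 7.82 on the control arrays, 8.15 and 8.45 on the rosiglitazone arrays, 8.24 and 7.83 on the carboplatin arrays and 7.96 and 8.04 on the combination arrays. Each drug group overlapped control, with the highest value in rosiglitazone 2. The difference for rosiglitazone over both backgrounds was 0.13 ± 0.13 (95% interval -0.16 to 0.43, adjusted p = 0.818) and for carboplatin -0.14 ± 0.13 (-0.43 to 0.16, adjusted p = 0.997). KEAP1, whose product is the adaptor that targets NRF2 for degradation, read 8.35 and 8.55 on the control arrays, 8.44 and 8.52 on the rosiglitazone arrays, 8.32 and 8.51 on the carboplatin arrays and 8.50 and 8.38 on the combination arrays. All 8 values of KEAP1 thus lay between 8.32 and 8.55, with a rosiglitazone difference of 0.02 ± 0.10 (-0.20 to 0.25) and a carboplatin difference of -0.04 ± 0.10 (-0.26 to 0.19).

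The small MAF genes encode the DNA-binding partners of NRF2. MAFG read 8.30 and 8.20 on the control arrays, 7.79 and 8.05 on the rosiglitazone arrays, 8.12 and 7.92 on the carboplatin arrays and 8.44 and 7.89 on the combination arrays. Both single-drug groups of MAFG lay below control, but the 2 combination arrays lay farther apart than any 2 group means. MAFG differed by -0.09 ± 0.14 for rosiglitazone over both backgrounds (adjusted p = 0.887). The brighter probe set of MAFF read 6.54 and 6.12 on the control arrays, 6.42 and 6.01 on the rosiglitazone arrays, 6.09 and 5.78 on the carboplatin arrays and 6.06 and 6.37 on the combination arrays. Carboplatin against control was at -0.39 for this probe set (unadjusted p = 0.144, adjusted p = 0.928), and at -0.18 without control 1, -0.61 without control 2 and -0.24 without carboplatin 2. The dimmer MAFF probe set stayed between 5.33 and 5.63 on all arrays, and its difference for rosiglitazone was 0.01 ± 0.18.

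No gene that supplies or recycles glutathione was called. GCLC and GCLM encode the catalytic and modifier subunits of glutamate-cysteine ligase, the rate-limiting step of glutathione synthesis. One GCLC probe set (202922_at) read 8.09 and 7.55 on the control arrays, 8.19 and 8.07 on the rosiglitazone arrays, 7.96 and 7.86 on the carboplatin arrays and 7.79 and 8.11 on the combination arrays. The other (202923_s_at) read 8.50 and 8.55 on the control arrays, 8.87 and 8.54 on the rosiglitazone arrays, 8.62 and 8.68 on the carboplatin arrays and 8.51 and 8.59 on the combination arrays. In both probe sets 1 rosiglitazone array was the highest of all 8, and the rosiglitazone and control values overlapped. Their rosiglitazone differences were 0.17 ± 0.14 (-0.13 to 0.47) and 0.04 ± 0.10 (-0.18 to 0.27). GCLM read 9.36 and 9.50 on the control arrays, 9.28 and 9.36 on the rosiglitazone arrays, 9.53 and 9.33 on the carboplatin arrays and 9.18 and 9.39 on the combination arrays, so no drug group lay clear of control. Its difference for rosiglitazone was -0.12 ± 0.09 (-0.33 to 0.08) and for carboplatin -0.02 ± 0.09 (-0.22 to 0.19).

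SLC7A11, the cystine importer that feeds glutathione synthesis, was read by 3 probe sets. 209921_at read 9.95 and 9.95 on the control arrays, 9.89 and 9.78 on the rosiglitazone arrays, 9.66 and 9.92 on the carboplatin arrays and 9.28 and 9.75 on the combination arrays. 207528_s_at read 7.69 and 7.51 on the control arrays, 7.66 and 7.73 on the rosiglitazone arrays, 7.50 and 7.96 on the carboplatin arrays and 7.36 and 7.28 on the combination arrays. 217678_at read 8.51 and 8.94 on the control arrays, 8.46 and 8.74 on the rosiglitazone arrays, 8.71 and 8.80 on the carboplatin arrays and 7.90 and 8.88 on the combination arrays. Array combination 1 was the lowest of the 8 for 209921_at and 217678_at, and for 207528_s_at both combination arrays lay below the other 6. The combination against control was at -0.44 ± 0.16 for 209921_at (unadjusted p = 0.0182, adjusted p = 0.464), and became -0.20 without combination 1 and -0.67 without combination 2. The combination against carboplatin was at -0.41 ± 0.18 for 207528_s_at (unadjusted p = 0.0441, adjusted p = 0.755), and became -0.18 without carboplatin 2 and -0.65 without carboplatin 1. The interaction of 207528_s_at was -0.51 ± 0.26 (-1.07 to 0.05, adjusted p = 0.831), and -0.28 without carboplatin 2. Over both backgrounds 209921_at was at -0.24 ± 0.11 for carboplatin (unadjusted p = 0.0504). For rosiglitazone 207528_s_at was at -0.16, 209921_at at -0.19 and 217678_at at -0.24. With the deposited scaling 207528_s_at was at 0.04 and 209921_at at 0.01, below the shift of all probe sets.

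The remaining genes of this group were GSS, which encodes glutathione synthetase, and GSR, which encodes glutathione reductase. The 2 GSS probe sets differed by -0.11 ± 0.12 and -0.07 ± 0.09 for rosiglitazone. GSR spread more widely within groups, from 8.63 in rosiglitazone 1 to 7.30 in rosiglitazone 2, with a rosiglitazone difference of 0.21 ± 0.25 (-0.34 to 0.77). For carboplatin over both backgrounds all 9 probe sets of the group were lower, from -0.24 to -0.01, and none was called. All 9 were lower with the deposited and the median scaling as well. Against control alone their signs were mixed. GCLC was at 0.09 and 0.13, GSR at 0.06, GCLM at 0, SLC7A11 207528_s_at at 0.13 and 217678_at at 0.03. GSS was at -0.23 and -0.02 and SLC7A11 209921_at at -0.16. Several of these 9 probe sets read the same gene and are not independent. Over both backgrounds 49.1% of all probe sets were higher with carboplatin, as were all 5 glutathione peroxidase probe sets, another role. Of these 5, GPX2 was at 0.01 and GPX3 201348_at at 0. With median scaling 3 of the 5 were higher, and with the deposited scaling 1 was. In both scalings all 5 lay above the median of all probe sets.

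**Figure D2:**
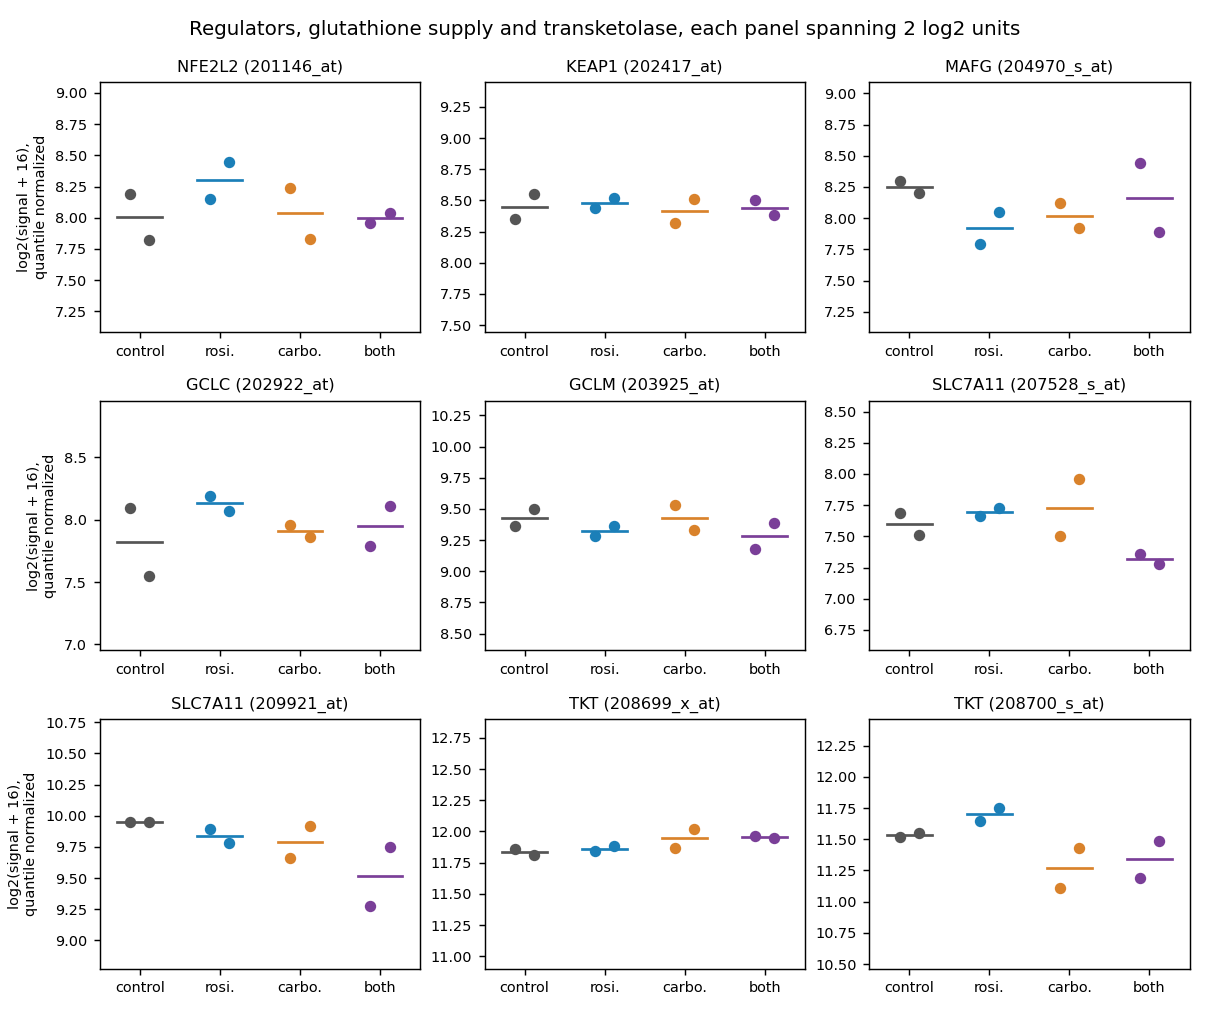
Quantile normalized log2(signal + 16) (y axis) on each of the 8 arrays, as points, in control, rosiglitazone (rosi.), carboplatin (carbo.) and the combination (both), with replicate 1 left and 2 right and the group mean as a line; every panel spans 2 log2 units. No drug group of NFE2L2, KEAP1 or GCLM lies clear of control, both combination arrays of SLC7A11 207528_s_at are the lowest of 8, and the 4 arrays with carboplatin lie below the other 4 for TKT 208700_s_at but not for TKT 208699_x_at.

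No peroxide-removing enzyme was called, and GPX4 lay farthest from 0 among them for rosiglitazone over both backgrounds. GPX4 encodes the glutathione peroxidase that reduces lipid hydroperoxides in membranes and thereby guards against ferroptosis. It read 8.96 and 9.32 on the control arrays, 9.14 and 9.73 on the rosiglitazone arrays, 9.05 and 8.97 on the carboplatin arrays and 9.70 and 9.62 on the combination arrays. Both combination arrays lay above all control and carboplatin arrays, while rosiglitazone 1 lay below control 2. The combination was higher than carboplatin by 0.65 ± 0.19 (1.57-fold, 95% interval 0.24 to 1.06, unadjusted p = 0.00497, adjusted p = 0.403) and than control by 0.52 ± 0.19 (adjusted p = 0.459), or by 0.34 without control 1. Rosiglitazone alone against control was at 0.30, and became 0 without rosiglitazone 2, 0.59 without rosiglitazone 1, 0.12 without control 1 and 0.48 without control 2. Over both backgrounds the rosiglitazone difference was 0.47 ± 0.13 (adjusted p = 0.180), and without rosiglitazone 1 it was 0.62 and passed (adjusted p = 0.0456, from 0.0456 to 0.513 over 17 alternatives).

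The other glutathione peroxidases did not separate the groups. GPX1, the abundant cytosolic enzyme, was at -0.15 ± 0.09 for rosiglitazone and 0.09 ± 0.09 for carboplatin. GPX2 (-0.07 ± 0.14) and the 2 probe sets of the secreted enzyme gene GPX3 (-0.06 ± 0.19 and -0.13 ± 0.17) were near 0 for rosiglitazone. Of the peroxiredoxins, thiol enzymes that reduce hydrogen peroxide, PRDX1 was at -0.04 ± 0.08 and PRDX4, the enzyme of the endoplasmic reticulum, at 0.04 ± 0.09 for rosiglitazone. The 2 probe sets of the mitochondrial PRDX3 differed in sign (-0.08 and 0.13), as did those of PRDX6 (-0.14 and 0.01).

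PRDX2 was the noisiest member. Its 1 tested probe set read 4.64 and 6.46 on the control arrays, 4.61 and 5.26 on the rosiglitazone arrays, 5.26 and 6.0 on the carboplatin arrays and 6.17 and 5.82 on the combination arrays. The 2 control arrays differed by more than any 2 group means, and the other 3 PRDX2 probe sets were at means of 4.39 to 4.65, near the floor of the scale. The largest difference of any member, 1.06 ± 0.51 for the combination against rosiglitazone, was that of this probe set (-0.05 to 2.17, unadjusted p = 0.0599, adjusted p = 1). SOD1, the cytosolic copper-zinc superoxide dismutase, lay between 11.17 and 11.44 on all 8 arrays, at 0.07 ± 0.07 for rosiglitazone and 0.05 ± 0.07 for carboplatin. The 3 tested probe sets annotated jointly to SOD2 and SOD2-OT1 were at -0.04, 0.04 and -0.19 for rosiglitazone, none called.

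Glutathione transferases attach glutathione to electrophiles, and MGST3 stood farthest from 0 among them for rosiglitazone over both backgrounds. MGST3, a microsomal transferase with peroxidase activity, read 9.90 and 10.00 on the control arrays, 10.49 and 10.28 on the rosiglitazone arrays, 10.14 and 10.07 on the carboplatin arrays and 10.35 and 10.37 on the combination arrays. All 4 arrays with rosiglitazone lay above all 4 without it, where 6.15% of all probe sets did not overlap in one direction or the other. The rosiglitazone difference was 0.43 ± 0.11 against control (1.35-fold, adjusted p = 0.189) and 0.25 ± 0.11 on top of carboplatin (unadjusted p = 0.0455, adjusted p = 0.768), and 0.41 ± 0.11 for the combination against control (adjusted p = 0.266). Over both backgrounds it was 0.34 ± 0.08 (0.17 to 0.52, unadjusted p = 0.00124, adjusted p = 0.0927), and it did not pass in any of 17 alternatives, where it ran from 0.29 to 0.54. For carboplatin MGST3 was at 0.07 ± 0.08.

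GSTP1, a transferase often linked to platinum resistance, held between 10.17 and 10.38 on the 8 arrays, with 0.06 ± 0.07 for rosiglitazone (-0.10 to 0.22) and 0.08 ± 0.07 for carboplatin (-0.08 to 0.24). GSTO1, the omega-class transferase, was at -0.13 ± 0.08 for rosiglitazone over both backgrounds. MGST2 was at 0.13 ± 0.13 and the alpha-class GSTA4 at -0.03 ± 0.14 for rosiglitazone. The mu-class genes GSTM2 (-0.05 ± 0.17), GSTM3 (-0.14 ± 0.14) and GSTM4 (0.08 ± 0.16) are close paralogs. The tested probe sets of GSTM2 and GSTM4 carry the suffix _x_at, which marks probes that can also read related transcripts. Their signals cannot be assigned to 1 gene with certainty. The same holds for the tested PRDX2 probe set above, 215067_x_at. GSTT1 stayed between 4.24 and 4.42 on all arrays, near the floor of log2(16) = 4.

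Among the enzymes for quinones, epoxides and carbonyls, NQO1 and EPHX1 lay farthest from 0 for rosiglitazone over both backgrounds. NQO1, the NAD(P)H quinone reductase and a standard readout of NRF2 activity, was read by 3 probe sets that did not behave alike. 201468_s_at read 11.95 and 11.84 on the control arrays, 11.17 and 11.25 on the rosiglitazone arrays, 11.59 and 11.87 on the carboplatin arrays and 11.41 and 11.75 on the combination arrays. Both rosiglitazone arrays lay below the other 6, and the combination lay between rosiglitazone and control. 201467_s_at read 10.48 and 10.61 on the control arrays, 10.55 and 10.66 on the rosiglitazone arrays, 10.57 and 10.69 on the carboplatin arrays and 10.50 and 10.62 on the combination arrays. 210519_s_at read 12.35 and 12.42 on the control arrays, 12.45 and 12.46 on the rosiglitazone arrays, 12.50 and 12.57 on the carboplatin arrays and 12.32 and 12.52 on the combination arrays. The spread over all 8 arrays was narrow in both of these, from 10.48 to 10.69 and from 12.32 to 12.57.

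For rosiglitazone against control 201468_s_at of NQO1 was at -0.69 ± 0.13 (0.621-fold, -0.97 to -0.41, unadjusted p = 0.000216, adjusted p = 0.0524), the smallest adjusted p of any member in any contrast. The same contrast gave 0.06 for 201467_s_at and 0.07 for 210519_s_at. The call depended on the setting: 201468_s_at passed in 6 of 17 alternatives, among them array brightness as a covariate (adjusted p = 0.0258), the replicate number as a block (adjusted p = 0.0483), without combination 1 (adjusted p = 0.0394) and without combination 2 (adjusted p = 0.0387), and its adjusted p ran from 0.0258 to 0.943. It was not called when any 1 control, rosiglitazone or carboplatin array was left out. On top of carboplatin the difference was -0.15, and 0.01 without combination 1. The interaction was 0.54 ± 0.18 (unadjusted p = 0.0128, adjusted p = 0.821), and the combination differed from rosiglitazone by 0.37 ± 0.13 (unadjusted p = 0.0141, adjusted p = 1), or by 0.20 without combination 2. Over both backgrounds rosiglitazone was at -0.42 ± 0.09 for this probe set (adjusted p = 0.0649), and without combination 2 it was -0.51 and passed (adjusted p = 0.0273, from 0.0127 to 0.925 over 17 alternatives). The same difference was -0.01 ± 0.08 (-0.18 to 0.16) for 201467_s_at and -0.02 ± 0.06 (-0.16 to 0.11) for 210519_s_at. For 210519_s_at carboplatin against control was at 0.15 (unadjusted p = 0.116, adjusted p = 0.928).

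EPHX1, the microsomal epoxide hydrolase gene whose promoter core is shown above, read 9.40 and 9.44 on the control arrays, 9.81 and 10.08 on the rosiglitazone arrays, 9.54 and 9.53 on the carboplatin arrays and 9.94 and 9.66 on the combination arrays. As with MGST3, the 4 arrays with rosiglitazone lay above the 4 without. It was the other of the 2 members of 47 whose rosiglitazone arrays did not overlap the rest, where 6.15% of all probe sets did not overlap in one direction or the other. Rosiglitazone against control was at 0.52 ± 0.14 (1.44-fold, 0.23 to 0.82, unadjusted p = 0.00252, adjusted p = 0.184), the combination against control at 0.38 ± 0.14 (adjusted p = 0.440) and the combination against carboplatin at 0.27 ± 0.14 (adjusted p = 0.826). Without combination 1 the last 2 became 0.24 and 0.13, and against carboplatin it was 0.41 without combination 2. Over both backgrounds it was 0.40 ± 0.10 (0.19 to 0.61, adjusted p = 0.106) and did not pass in any of 17 alternatives, with values from 0.33 to 0.59. Carboplatin gave -0.01 ± 0.10. CBR1, a carbonyl reductase, was at -0.17 ± 0.13 for rosiglitazone. UGDH, which makes UDP-glucuronic acid for conjugation, read 9.46 and 9.53 on the control arrays, 9.65 and 9.54 on the rosiglitazone arrays, 9.70 and 9.58 on the carboplatin arrays and 9.33 and 9.48 on the combination arrays. Each single-drug group of UGDH lay above control and the combination lay below both of them, with an interaction of -0.33 ± 0.17 (unadjusted p = 0.0767, adjusted p = 0.834).

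**Figure D3:**
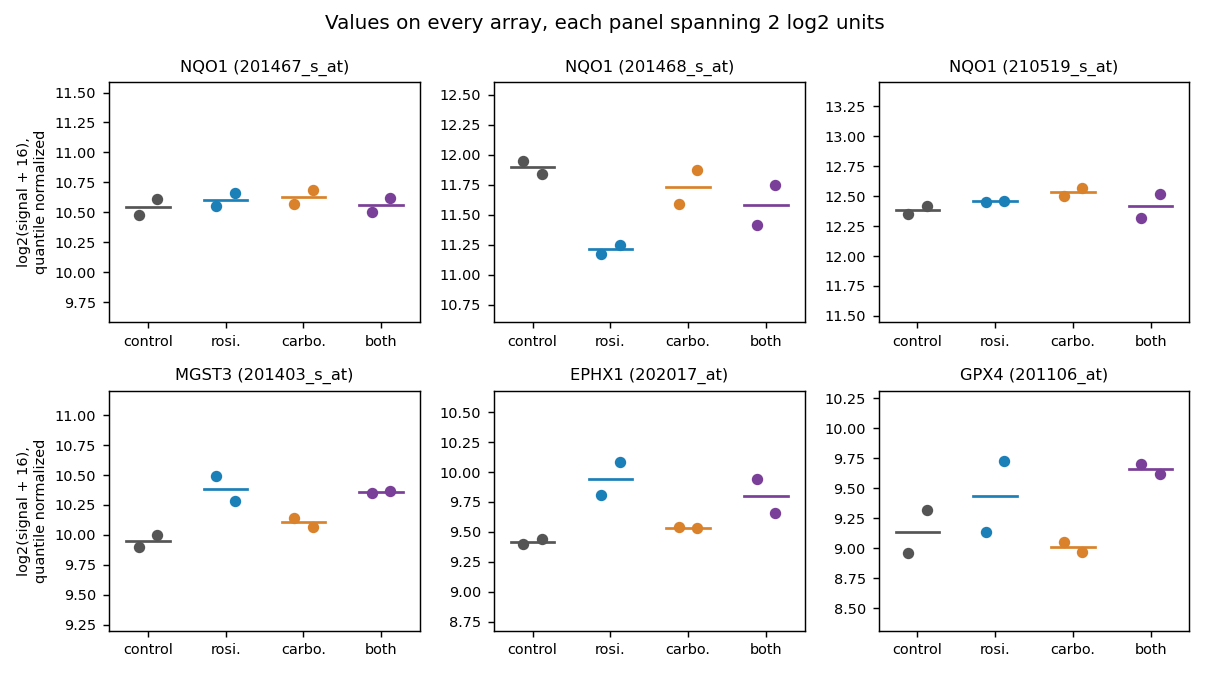
Quantile normalized log2(signal + 16) (y axis) on each of the 8 arrays, as points, for the 3 NQO1 probe sets and for MGST3, EPHX1 and GPX4 in control, rosiglitazone (rosi.), carboplatin (carbo.) and the combination (both); replicate 1 is left, replicate 2 right, lines are group means, and each panel spans 2 log2 units. The rosiglitazone points of NQO1 201468_s_at, at 11.17 and 11.25, are the lowest of its 8, those of the other NQO1 probe sets are not, and the 4 arrays with rosiglitazone are above the 4 without for MGST3 and EPHX1.

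NADPH, the reductant behind glutathione and thioredoxin recycling, comes in part from the pentose phosphate pathway and malic enzyme. TKT encodes transketolase, of the non-oxidative branch of that pathway. 208700_s_at of TKT read 11.52 and 11.55 on the control arrays, 11.65 and 11.75 on the rosiglitazone arrays, 11.11 and 11.43 on the carboplatin arrays and 11.19 and 11.49 on the combination arrays. The 4 arrays with carboplatin lay below the 4 without, as they did for 1 of 47 members, where 2.36% of all probe sets did not overlap. The difference over both backgrounds was -0.31 ± 0.09 (-0.51 to -0.11, unadjusted p = 0.00563, adjusted p = 0.997), at -0.26 ± 0.13 against control and -0.35 ± 0.13 on top of rosiglitazone (unadjusted p = 0.0175, adjusted p = 1). Against control it became -0.10 without carboplatin 1 and -0.41 without carboplatin 2, and on top of rosiglitazone -0.20 without combination 1. The second TKT probe set, 208699_x_at, read 11.86 and 11.81 on the control arrays, 11.84 and 11.88 on the rosiglitazone arrays, 11.87 and 12.02 on the carboplatin arrays and 11.96 and 11.95 on the combination arrays. It did not share that pattern, with 0.10 ± 0.06 for carboplatin. By its suffix _x_at it may also read related transcripts.

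None of the other genes of NADPH supply was called. PGD, the second NADPH-producing dehydrogenase of the pentose phosphate pathway, was at 0.05 ± 0.07 for rosiglitazone and 0.01 ± 0.07 for carboplatin. TALDO1, which encodes transaldolase, was at -0.06 ± 0.07 and 0. The 2 tested probe sets of ME1, cytosolic malic enzyme, were at 0.23 ± 0.18 and 0.06 ± 0.11 for rosiglitazone, none called.

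A second list held 40 neighbouring genes of the same pathway that are not members, among them other NRF2 targets, thioredoxin genes and catalase; 50 probe sets of 33 of these genes were tested. It was drawn up with earlier results of these data known and is not independent evidence. For rosiglitazone over both backgrounds 9 of the 50 were called, all higher (0.667% of all probe sets were called as higher), with a median of 0.05. They were HMOX1, which encodes heme oxygenase, both probe sets of SQSTM1, the autophagy receptor p62 that binds KEAP1, both tested probe sets of the catalase gene CAT, and 4 probe sets of the aldo-keto reductase genes AKR1C1, AKR1C2 and AKR1C3. The other tested probe sets of AKR1C1 and AKR1C2 were not called. These were 216594_x_at at 0.22 (adjusted p = 0.263) and 209699_x_at at 0.27 (adjusted p = 0.0514). The aldo-keto reductases are close paralogs, and a probe set of one may also read another.

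SQSTM1 probe set 213112_s_at read 8.29 and 8.28 on the control arrays, 9.11 and 9.29 on the rosiglitazone arrays, 8.25 and 8.20 on the carboplatin arrays and 9.08 and 8.95 on the combination arrays. It rose by 0.85 ± 0.09 over both backgrounds (1.80-fold, adjusted p = 0.00191), and the other SQSTM1 probe set by 0.56 ± 0.07 (adjusted p = 0.00421). HMOX1 read 8.22 and 8.22 on the control arrays, 9.08 and 8.93 on the rosiglitazone arrays, 8.40 and 8.42 on the carboplatin arrays and 9.47 and 9.21 on the combination arrays, and rose by 0.86 ± 0.10 (1.81-fold, adjusted p = 0.00218). The brighter CAT probe set rose by 0.75 ± 0.11 (adjusted p = 0.00517) and the other by 0.60 ± 0.12 (adjusted p = 0.0429). For these genes every rosiglitazone and combination array lay above every array without rosiglitazone. Of all probe sets, 6.15% did not overlap in one direction or the other. These genes were picked by their call in the same comparison, so this separation is not further evidence. AKR1C1 217626_at rose by 0.71 ± 0.10 (adjusted p = 0.00517), AKR1C3 by 0.39 ± 0.06 (adjusted p = 0.0122), AKR1C2 211653_x_at by 0.32 ± 0.06 (adjusted p = 0.0224) and AKR1C1 204151_x_at by 0.30 ± 0.05 (adjusted p = 0.0173). The calls of HMOX1 and of SQSTM1 213112_s_at held in 17 of 17 alternatives, those of AKR1C1 217626_at in 16, CAT 201432_at and SQSTM1 201471_s_at in 15, AKR1C3 in 9, AKR1C2 211653_x_at in 5, AKR1C1 204151_x_at in 4 and CAT 211922_s_at in 3. The 9 calls became 5 when control 2, rosiglitazone 2, carboplatin 1 or combination 2 was left out.

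In the other contrasts of the neighbouring list the calls were fewer. Rosiglitazone against control called 3, HMOX1 and both SQSTM1 probe sets, where 0.270% of all probe sets were called as higher. The combination against control called 3, HMOX1, AKR1C1 217626_at and AKR1C2 211653_x_at (0.165% of all called as higher), and the combination against carboplatin called HMOX1 (0.142% of all called as higher). The first count fell to 0 when control 1 or either rosiglitazone array was left out, and to 1 without control 2. The second fell to 0 when either control array or combination 1 was left out, and to 1 when combination 2 or either rosiglitazone array was. The HMOX1 call against carboplatin was lost when rosiglitazone 1 or any 1 carboplatin or combination array was left out. Carboplatin over both backgrounds, carboplatin against control, the combination against rosiglitazone and the interaction each called 0 of 50 by limma. At an unadjusted p under 0.05 there were 3, 2, 1 and 0, where 4.02%, 5.17%, 4.54% and 5.97% of all probe sets passed. The thioredoxin gene TXN (0.05 and -0.02), TXNRD1, which encodes thioredoxin reductase (-0.03), the ferritin light chain gene FTL (0.05 and 0.02) and AKR1B10 (0.00) were near 0 for rosiglitazone and not called. For rosiglitazone over both backgrounds 15 of the 50 had an unadjusted p under 0.05 by limma, where 9.96% of all probe sets passed. Of these 13 were higher and 2 lower. The 2 lower were those of GLRX, at -0.40 and -0.42 (unadjusted p = 0.0221 and 0.00909), and neither was called. Whether members and neighbouring genes differ as groups was not tested.

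Rosiglitazone against control and the combination against carboplatin share no array, so each member has 2 separate readings of what rosiglitazone did. Of the 47 members 28 had the same sign in both, 14 higher and 14 lower (59.6%, against 52.6% of all probe sets), with a Pearson correlation of 0.13 and a Spearman correlation of 0.18 over the 47. Over all 13338 probe sets these correlations were 0.14 and 0.09. For the 50 neighbouring probe sets 30 had the same sign, and the correlations were 0.78 and 0.69. Probe sets of 1 gene share a transcript and all probe sets share the same arrays, so these values only describe the plot. For carboplatin alone and on top of rosiglitazone, which also share no array, 15 of 47 members had the same sign (31.9%, against 45.9% of all probe sets).

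**Figure D4:**
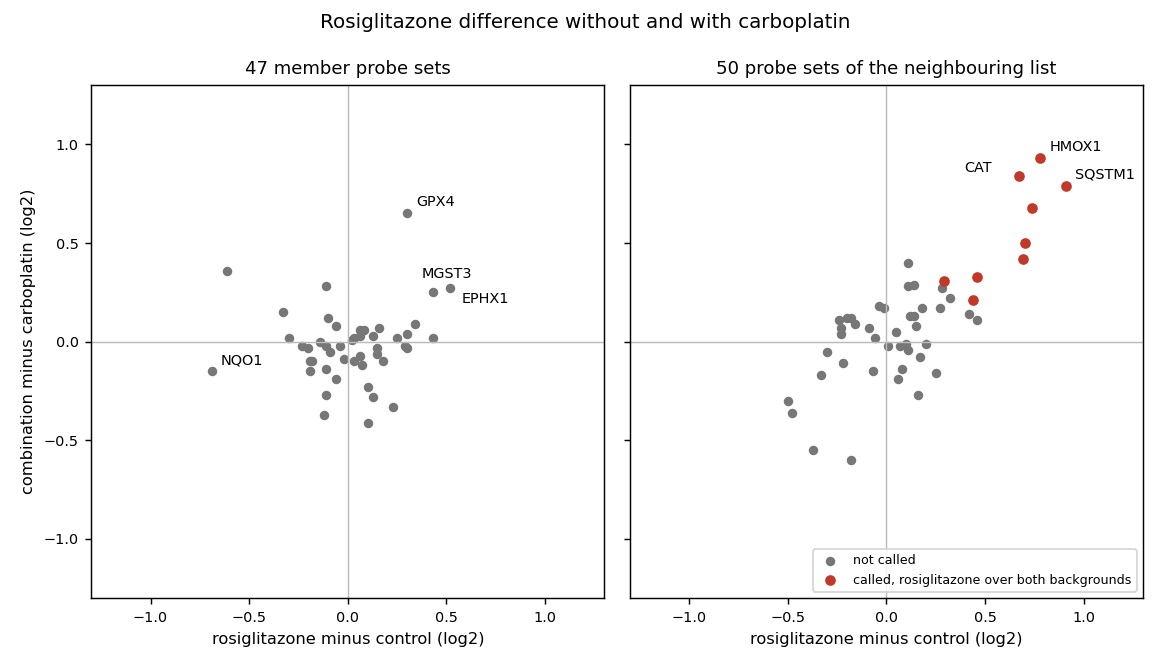
Log2 difference for rosiglitazone minus control (x axis) and for the combination minus carboplatin (y axis), which share no arrays; each point is a probe set, of the members (left, 47) or of the neighbouring list (right, 50). Red marks probe sets called for rosiglitazone over both backgrounds: there are none among the members and 9 among the neighbouring genes, where HMOX1, SQSTM1 and CAT lie toward the upper right.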

How the data were processed

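Biotinylated RNA made with an oligo-dT primer was hybridised to Affymetrix HG-U133A arrays, per the labels' protocols. The authors deposited 1 linear intensity signal for each probe set. Which software, background correction and scaling gave these signals is not given in the sources used here. Groups came from the sample titles. Signals were taken as log2(signal + 16) and quantile normalized (limma 3.58.1, R 4.3.3). The 68 control probe sets and probe sets with a mean below the 40th percentile were left out, which left 13338. Probe sets were named from GEO's platform annotation, where 19071 have 1 gene symbol, 1043 several and 2169 none. A group-means model over all 8 arrays was fitted by lmFit and eBayes with an intensity trend (4 residual and 7.1 prior degrees of freedom), tested two-sided in 8 contrasts. The members and lists were chosen with earlier results of these data known. Values on every array were printed for the 3 members of smallest p in each contrast, for any called member, and for NFE2L2, KEAP1, MAFG, MAFF, NQO1, GCLC, GCLM and SLC7A11, except the dimmer MAFF probe set, given by its range; other genes are given by difference or range. Alternatives were the deposited and median scaling, pseudocounts of 1 and 64, no filter or one at the 60th percentile, no trend, array brightness as a covariate, a replicate block, and the omission of each array in turn. The fit was also run on simulated arrays with independent noise and planted shifts larger than any member's difference over both backgrounds. That run gives no measure of power at the sizes reported here.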

Additional observations from a re-analysis of the deposited data

How the results depend on the processing

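The count of called members, 0 in every contrast, stayed 0 in 6 of the 8 contrasts under all 17 alternatives. For rosiglitazone over both backgrounds it was 1 with the 60th percentile filter and 1 with the brightness covariate, and 0 to 1 when single arrays were left out. For rosiglitazone against control it was 1 with a pseudocount of 64, 1 with the 60th percentile filter, 1 with the replicate block and 1 with the brightness covariate, and 0 to 1 when single arrays were left out. The member was NQO1 201468_s_at each time except without rosiglitazone 1, where it was GPX4. Of the neighbouring list, the 9 calls for rosiglitazone over both backgrounds became 2 under the deposited scaling, 5 under median scaling, 5 unfiltered and 3 without the trend, and 5 to 7 without single arrays. The 3 for rosiglitazone against control became 0 under the deposited scaling, 0 under median scaling, 0 unfiltered, 0 without the trend, 0 with the brightness covariate and 6 with the 60th percentile filter, and 0 to 3 without single arrays. The 3 for the combination against control became 0 under the deposited scaling, 1 under median scaling, 1 unfiltered and 0 without the trend, and 0 to 2 without single arrays. The 1 for the combination against carboplatin became 0 under the deposited scaling, 0 under median scaling, 0 unfiltered, 0 without the trend and 2 with the 60th percentile filter, and 0 to 1 without single arrays. Stricter or looser filters change the number of probe sets tested; otherwise the cause was not tested. Over all probe sets the 118 calls for rosiglitazone over both backgrounds ranged from 36 without the trend to 142 with the 60th percentile filter.

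Signs turned for 22 of 75 values followed. With the deposited scaling the rosiglitazone difference over both backgrounds was 0.19 for NQO1 201467_s_at, 0.16 for NQO1 210519_s_at, 0.12 for UGDH, 0.08 for GCLM, 0.09 for MAFG, 0.04 for SLC7A11 207528_s_at, 0.01 for SLC7A11 209921_at and 0.01 for PRDX2, the carboplatin difference was -0.08 for GPX4 and -0.05 for MGST3, and rosiglitazone against control was 0.15 for SLC7A11 209921_at. With median scaling NQO1 201467_s_at was at 0.04, NQO1 210519_s_at at 0.01 and MAFF 36711_at at -0.01 for rosiglitazone, and GPX4 at -0.01 for carboplatin. With the brightness covariate MAFG was at 0, TKT 208699_x_at at 0, PRDX2 at 0.07 and MAFF 36711_at at -0.06 for rosiglitazone, and SLC7A11 207528_s_at was at 0 for rosiglitazone against control. Without single arrays the rosiglitazone differences ran from -0.04 to 0.03 for NQO1 201467_s_at, -0.07 to 0.03 for NQO1 210519_s_at, -0.02 to 0.07 for KEAP1, -0.04 to 0.12 for GCLC 202923_s_at, -0.23 to 0.04 for MAFG, -0.02 to 0.19 for MAFF 205193_at, -0.06 to 0.08 for MAFF 36711_at, -0.02 to 0.06 for TKT 208699_x_at, -0.58 to 0.33 for PRDX2 and -0.49 to 0 for SLC7A11 217678_at. In the same way the carboplatin differences ran from -0.10 to 0.20 for GPX4 and -0.08 to 0.06 for EPHX1, rosiglitazone against control from 0 to 0.59 for GPX4, and the combination against carboplatin from -0.33 to 0.01 for NQO1 201468_s_at and -0.08 to 0.23 for TKT 208700_s_at.

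The titles number the replicates but do not say whether equal numbers mark a pair. Deviations of same-numbered arrays from their group means correlated from -0.11 to 0.25 between groups. With only 2 arrays in a group, these values cannot decide whether the arrays were paired. With the replicate block 115 probe sets passed for rosiglitazone over both backgrounds, and the only call of a member it changed was NQO1 201468_s_at against control, at -0.69.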
